A study of Mus musculus with 14 samples.

Results

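Osteopontin (Spp1) and 9 further genes of the osteoblast and osteocyte lineage were followed through RNA of whole mouse paws from birth (postnatal day 0, P0) to postnatal day 3 (P3). The 10 genes were taken by symbol from the deposited gene table, which holds 56691 gene IDs. They are Spp1, Ibsp, Dmp1, Mepe, Phex, Bglap, Sp7, Runx2, Alpl and Sost. All 10 were found, and all 10 passed the filter on low counts that left 21619 genes for testing. Spp1 was chosen by its P3 genotype value, as 1 of 7 genes that differed between the genotypes on P3 when a technical term, described below, was added to the fit. Its P3 genotype values, and those of the other 9 genes, are therefore given as a description without a test.

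The mice were wild type (WT) or carried the label Krt9-/-, the loss of a keratin of palm and sole epidermis, and are called Krt9 null here as labelled. There were 4 WT and 2 Krt9 null libraries on P0, and 5 WT and 3 Krt9 null libraries on P3, and both sexes occur in every group. Total RNA of a whole paw, depleted of ribosomal RNA, mixes skin, muscle, cartilage and bone, so fewer bone cells and less RNA per bone cell cannot be told apart in these values. The labels give neither the kind of Krt9 allele nor the strain, and 2 of the WT libraries of P3 come from 1 litter. On P0, WT replicate 1 and Krt9 null replicate 1 carry the same litter number and are the only litter mates of different genotype within a day.

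In bone, osteoblasts lay down a collagen matrix and mineralise it, and those that become buried in it turn into osteocytes. Runx2 and Sp7 (osterix) are transcription factors required for the osteoblast fate. Spp1, Ibsp (bone sialoprotein), Dmp1 and Mepe encode acidic, secreted phosphoproteins of mineralised matrix and lie in 1 gene cluster, in the order Dspp, Dmp1, Ibsp, Mepe and Spp1. Alpl (tissue non-specific alkaline phosphatase) degrades the mineralisation inhibitor pyrophosphate, and Bglap encodes osteocalcin, a late osteoblast product. Phex, an endopeptidase, acts with Dmp1 to restrain the phosphate-lowering hormone Fgf23, and Sost encodes sclerostin, the Wnt inhibitor of mature osteocytes.

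The sequence just upstream of the start site is shown for the 5 genes that passed the test for a change between the days in WT paws. Each is the 250 bases before a start given by RefSeq on GRCm38.p6, written 5′ to 3′ on the gene's strand. Capitals mark ACCACA or its reverse complement TGTGGT, the core letters bound by Runx factors. Where RefSeq lists 2 starts, the window that holds these letters is shown. The Spp1 window is chr5:104434861-104435110 (+), that of Dmp1 chr5:104202367-104202616 (+), that of Mepe chr5:104325079-104325328 (+), that of Phex chrX:157415287-157415536 (-) and that of Sost chr11:101967016-101967265 (-).
Spp1: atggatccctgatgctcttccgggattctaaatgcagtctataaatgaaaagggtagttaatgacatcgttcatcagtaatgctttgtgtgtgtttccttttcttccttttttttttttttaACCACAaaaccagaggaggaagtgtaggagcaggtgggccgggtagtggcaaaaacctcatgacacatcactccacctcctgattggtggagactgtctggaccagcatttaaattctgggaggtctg
Dmp1: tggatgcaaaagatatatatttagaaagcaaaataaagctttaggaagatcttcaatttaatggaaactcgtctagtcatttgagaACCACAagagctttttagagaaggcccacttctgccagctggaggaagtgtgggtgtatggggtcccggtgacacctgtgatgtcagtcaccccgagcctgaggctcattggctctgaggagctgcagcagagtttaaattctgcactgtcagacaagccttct
Mepe: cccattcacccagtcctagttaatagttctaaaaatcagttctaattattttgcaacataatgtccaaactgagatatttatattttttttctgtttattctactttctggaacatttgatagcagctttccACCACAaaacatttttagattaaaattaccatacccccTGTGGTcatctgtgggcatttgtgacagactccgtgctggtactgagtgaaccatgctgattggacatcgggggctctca
Phex: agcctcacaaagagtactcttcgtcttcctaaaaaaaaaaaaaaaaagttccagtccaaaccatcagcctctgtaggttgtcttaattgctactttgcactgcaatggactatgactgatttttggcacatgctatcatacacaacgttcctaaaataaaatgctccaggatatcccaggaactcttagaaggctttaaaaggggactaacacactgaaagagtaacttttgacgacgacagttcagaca
Sost: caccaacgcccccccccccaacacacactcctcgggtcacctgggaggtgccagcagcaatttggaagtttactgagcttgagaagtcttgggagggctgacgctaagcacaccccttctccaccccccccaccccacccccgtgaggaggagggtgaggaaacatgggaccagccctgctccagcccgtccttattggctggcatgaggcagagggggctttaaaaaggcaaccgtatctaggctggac

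Positions are those of the first of the 6 letters, counted back from the start site. Spp1 holds the letters once, at -128, Dmp1 once at -164, and Mepe at -118 and -80, while the windows of Phex and Sost hold none. The second windows of Spp1 and Dmp1 hold none. Among the other members, Bglap (-132) and Runx2 (-80) hold them as well. In all, 5 of the 12 windows of the 9 members with an entry held the letters, against 14.05% of 32851 promoter windows of the same length. A match of 6 letters describes the sequence only and was not set against binding data. The TATA letters TATAAA, searched on both strands, occurred in 5 of the 12 windows of the members and in 12.4% of all windows, and TAATTA, the core letters of many homeodomain proteins, in 2 of the 12 and in 4.84% of all.

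Sequencing depth was between 28947715 and 41004173 counts per library, with 25119 to 28061 genes detected. The table's column names are sorted in 2 separate runs, of 8 and 6 libraries, which are referred to as block A and block B and which no label names as a batch. Krt9 null replicate 1 of P0 and replicate 2 of P3 are the only libraries of that genotype in block A, and WT replicate 4 of P0 is the only WT library of its day in block B. Krt9 itself was at 2.09 to 7.61 CPM (read counts scaled to library size, after TMM scaling) in WT paws of P0 and at 6.08 and 5.32 CPM in the Krt9 null paws, so RNA level did not separate the genotypes on that day. On P3 its WT range was 32.9 to 83.04 CPM, and Krt9 null paws held 25.2, 7.74 and 11.5 CPM. WT replicate 4 of P0, labelled female, held 0.181 CPM of Xist and 0.155 CPM of Ddx3y, and thus lacked the markers of either sex, and results that turn on it are given without it.

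**Figure D1:**
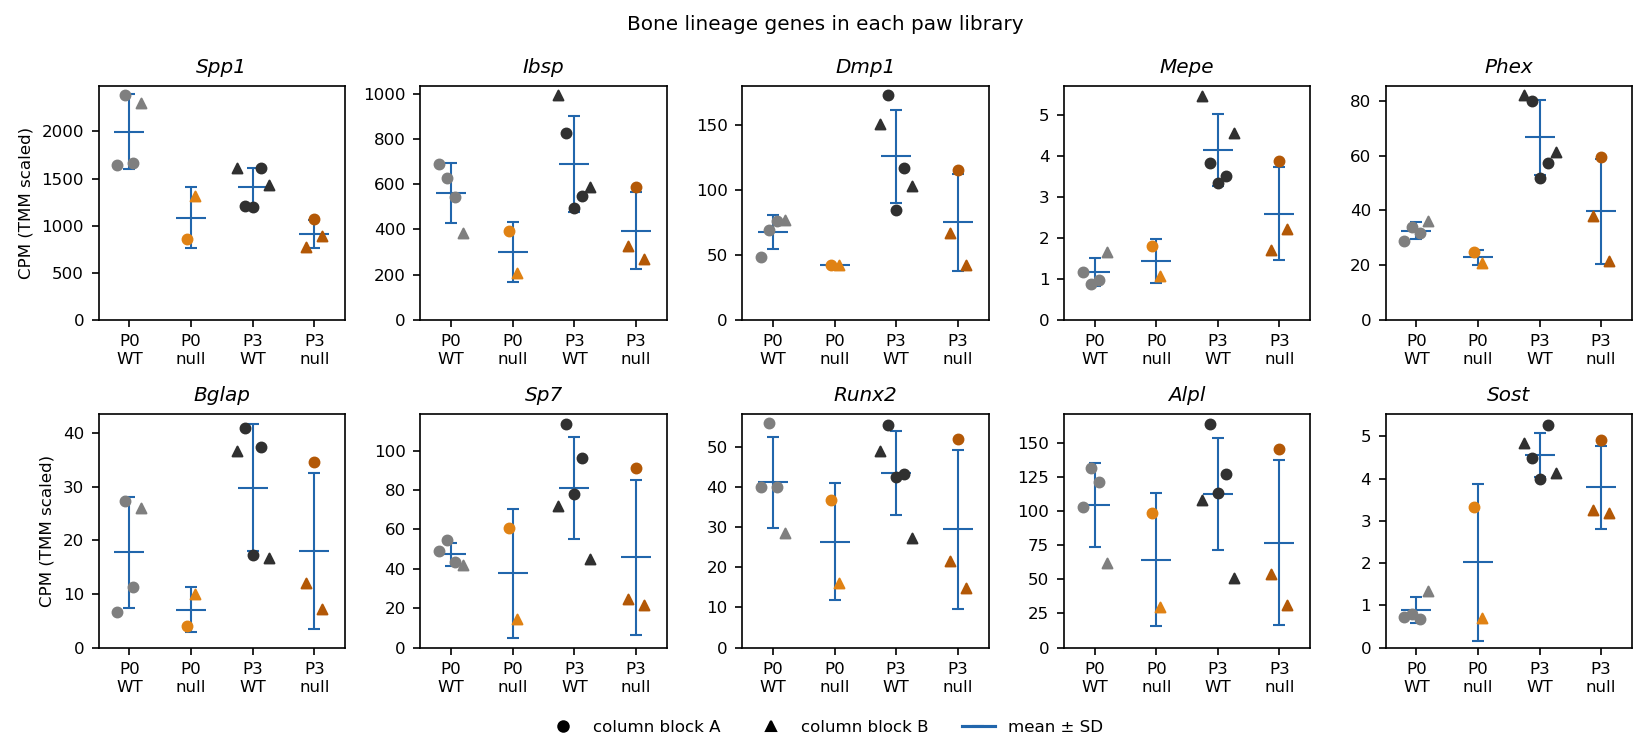
Each panel shows 1 gene, with TMM-scaled CPM on a linear axis and a point for each library in the 4 groups (circles block A, triangles block B, bars mean ± SD). In WT paws Mepe, Phex, Dmp1 and Sost lie higher on P3 than on P0 without overlap, Spp1 lies lower, and the lone Krt9 null circle of P3 is the highest of its 3 libraries in every panel.

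The WT levels of Spp1 on P0 were 1645, 2386, 1660.5 and 2306 CPM, and on P3 they were 1607, 1203, 1199.6, 1616 and 1432 CPM. Every WT paw of P3 thus lay below every WT paw of P0, although the lowest P0 value and the highest P3 value were close. The Krt9 null paws held 854 and 1314 CPM on P0 and 776, 1070.2 and 886 CPM on P3. On each day both genotypes were separate, with the highest Krt9 null paw below the lowest WT paw.

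Per kilobase of merged exon, Spp1 was at 1213 ± 244 CPM (SD, n = 4) in WT paws of P0, Ibsp at 271 ± 64.4 and the scarce transcripts Mepe and Sost at 0.693 ± 0.209 and 0.429 ± 0.150. On this scale of level per length, Bglap (28.7 ± 16.8), Alpl (25.9 ± 7.66), Dmp1 (24.5 ± 4.73) and Sp7 (13.9 ± 1.66) followed Ibsp. The first 3 of these overlapped within their spread. Phex (5.18 ± 0.490) and Runx2 (4.66 ± 1.28), long transcripts both, did not differ beyond their spread either. On P3 Spp1 was at 857 ± 125 and Ibsp at 333 ± 102 CPM per kilobase (SD, n = 5) in WT paws, so the order of these 2 genes was the same.

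From P0 to P3, WT paws changed in 5 of the 10 genes: Dmp1, Mepe, Phex and Sost rose and Spp1 fell. Over all genes tested, 16.6% passed this test, 8.49% higher and 8.07% lower. The same 5 genes were those whose WT libraries did not overlap between the days, against 8.96% of all genes higher and 7.73% lower without overlap. The 10 genes had a median log2 fold change of 0.82, and the median of all genes tested was -0.01.

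Sost, the sclerostin gene, had the largest rise of the 10. WT paws of P0 held 0.731, 0.790, 0.679 and 1.35 CPM, and those of P3 held 4.84, 4.50, 4.00, 5.28 and 4.14 CPM. The lowest P3 paw held more than any P0 paw. The fitted rise was 5.06-fold, or 2.34 on the log2 scale (SE 0.39), with edgeR's adjusted p = 0.00202. Block A alone gave 2.66 and block B alone 1.68, where replicate 4 is the only WT library of P0.

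Mepe, which encodes a phosphoprotein made by osteocytes, was low at birth. Its WT levels were 1.18, 0.865, 0.965 and 1.66 CPM on P0 and 5.47, 3.83, 3.33, 3.52 and 4.57 CPM on P3. All 5 paws of P3 lay above all 4 of P0, a 3.56-fold rise or 1.83 on the log2 scale (SE 0.32), with edgeR's adjusted p = 0.00237, and the block values were 1.86 and 1.63.

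Phex and Dmp1, whose loss in mice and humans leads to phosphate wasting, both rose. Phex went from 28.7, 33.8, 31.9 and 36.0 CPM to 82.3, 80.0, 51.9, 57.4 and 61.4 CPM, a log2 fold change of 1.02 (SE 0.24, edgeR's adjusted p = 0.0132). Dmp1 went from 48.7, 69.5, 75.8 and 76.7 CPM to 151, 173, 84.8, 117 and 103 CPM, a log2 fold change of 0.90 (SE 0.28, edgeR's adjusted p = 0.0489). Neither gene's days overlapped, but the gap for Dmp1 between the highest P0 and the lowest P3 paw was narrow. The block values were 1.04 and 0.69 for Phex and 0.99 and 0.41 for Dmp1.

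The fall of Spp1 was the smallest of the called changes, at 1.36-fold lower or -0.44 on the log2 scale (SE 0.13), with edgeR's adjusted p = 0.0318. Its 2 block values were -0.46 and -0.59. Scaled by library size alone, the change was -0.33 (edgeR's adjusted p = 0.115), and that scaling moved the median of all genes to 0.10. Without the sex term it was -0.50 (edgeR's adjusted p = 0.0582). The call of Dmp1 was lost with DESeq2's size factors, with the column block as a term and with litter as a block (adjusted p = 0.0502, 0.0726 and 0.0760). That of Spp1 was lost without any 1 of WT replicates 1 to 3 of P0 or 2 to 5 of P3 (log2 fold changes of -0.38 to -0.45 and edgeR's adjusted p of 0.0632 to 0.0962), and that of Dmp1 without any 1 of 11 libraries (edgeR's adjusted p up to 0.142). Mepe and Sost stayed called in each of these fits and Phex in all but those without WT replicate 1 or 3 of P0 (edgeR's adjusted p = 0.0513 and 0.0518). Without WT replicate 4 of P0, 4 of the 10 genes were called, with Sost at 2.64 and Spp1 at -0.43. Without WT replicate 1 or 3 of P0, 2 of the 10 genes were called, and without WT replicate 2 of P0 or replicate 2, 4 or 5 of P3, 3 were.

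The other 5 genes did not pass, although Sp7 passed with only the groups compared in the fit (0.77, edgeR's adjusted p = 0.0374), and Sp7 and Bglap passed without a filter on low counts (edgeR's adjusted p = 6.06e-06 and 1.62e-07). Without that filter the log2 fold changes of Sp7 and Bglap were 0.78 and 1.07, close to those of the main fit. Their standard errors were 0.15 and 0.18, against 0.51 and 0.54 in the main fit, so these passes go with a smaller estimate of the spread. Ibsp had WT levels of 689, 629, 542 and 382 CPM on P0 and 992, 827, 495, 548 and 586 CPM on P3. The days overlapped, and the log2 fold change was 0.26 (SE 0.27, edgeR's adjusted p = 0.567). The master regulator Runx2 was at 41.2 ± 11.3 CPM (SD, n = 4) and 43.6 ± 10.4 CPM (n = 5), a log2 fold change of 0.04 (SE 0.37), and Alpl at 105 ± 30.9 and 113 ± 40.9 CPM, 0.05 (SE 0.49). Sp7 was at 47.2 ± 5.65 and 80.9 ± 25.9 CPM, 0.75 (SE 0.51). Sp7, Runx2 and Alpl shared a low library, WT replicate 5 of P3, at 44.7, 27.4 and 50.6 CPM against ranges of 72.0 to 113, 42.6 to 55.5 and 108 to 164 CPM in the other 4 paws.

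Bglap varied widely within a group, with 6.56, 27.3, 11.3 and 25.95 CPM in WT paws of P0 and 36.7, 41.0, 17.2, 37.5 and 16.7 CPM on P3. Its log2 fold change of 1.04 (SE 0.54, edgeR's adjusted p = 0.220) did not pass, and block A alone gave 1.32 but block B alone -0.53. These values are uncertain because 51.3% of the 50-base windows of Bglap transcripts also occur in its neighbour Bglap2, which was at 14.2 CPM on P0 and 22.2 CPM on P3 in WT paws. The more distant copy Bglap3 rose from 0.167 to 1.19 CPM (log2 fold change 2.63, SE 0.63, edgeR's adjusted p = 0.0127). Its counts were low, 2 to 11 per WT library on P0 and 22 to 79 on P3. Of the 50-base windows of Bglap3, 5.88% also occur in Bglap2 and 4.04% in Bglap, while 37.9% of those of Bglap2 occur in Bglap3. The values of Bglap3 are thus uncertain too.

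**Figure D2:**
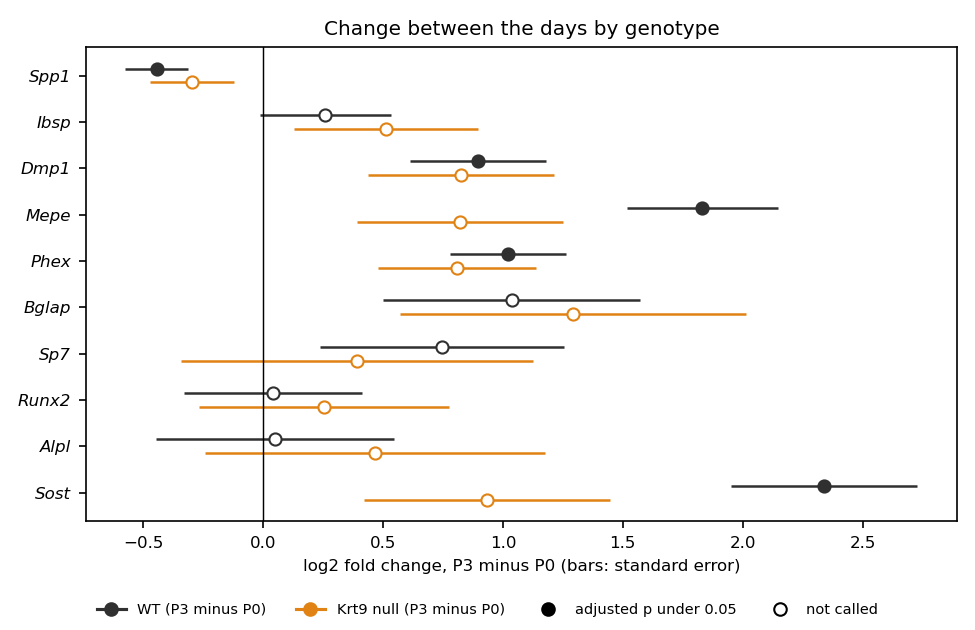
For each gene the fitted log2 fold change from P0 to P3 is shown with its standard error, in dark for WT and in orange for Krt9 null paws, and filled points passed edgeR's test at an adjusted p under 0.05. Spp1 lies left of 0 in both genotypes and the other 9 genes right of it, with filled points for 5 genes in WT and for none in Krt9 null paws.

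In Krt9 null paws 0 of the 10 genes passed the day test by edgeR or by DESeq2, while 0.768% of all genes did by edgeR (0.338% higher and 0.43% lower). An unadjusted p under 0.05 was reached by 1 member, Phex, and by 15.9% of all genes. The 10 genes had the same signs as in WT, 9 positive and Spp1 negative, with a median of 0.66. Sost went from 3.33 and 0.705 CPM to 3.26, 4.93 and 3.19 CPM, a log2 fold change of 0.93 (SE 0.51, edgeR's adjusted p = 0.403). Replicate 1 of P0 thus lay within the range of the Krt9 null paws of P3. Without it, the log2 fold change of Sost was 2.52 and passed (edgeR's adjusted p = 0.0300). Mepe went from 1.81 and 1.06 CPM to 1.70, 3.87 and 2.21 CPM, with overlapping days (log2 fold change 0.82, SE 0.43). Whether the change between days differs by genotype was not tested, since that difference contains the P3 genotype values that led to Spp1.

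At birth Spp1 had the smallest p of the 10 genes between the genotypes, though short of the threshold. WT paws averaged 1999 ± 402 CPM (SD, n = 4) and paws labelled Krt9 null 1084 ± 325 CPM (SD, n = 2). Both Krt9 null paws lay below all 4 WT paws. The log2 fold change was -0.89 (SE 0.17, 1.85-fold lower). It had an unadjusted p of 0.000133 by edgeR but did not pass over all genes tested (edgeR's adjusted p = 0.831). DESeq2 called it at -0.89 with adjusted p = 0.00165. By edgeR 0 of the 10 genes and 0.00463% of all genes passed, and 3 members (Spp1, Ibsp and Sost) and 5.96% of all genes had an unadjusted p under 0.05. Krt9 null replicate 1 has a WT litter mate among the 4 WT paws. The Spp1 value was -0.97 for block A alone and -0.80 for block B alone, and between -0.76 and -1.04 when each library was left out in turn. Without WT replicate 4 it was -0.88 (edgeR's adjusted p = 0.116). Over the other scalings, filters, covariates and fits of all libraries, edgeR's or limma's adjusted p ran from 0.00225 without a filter on low counts to 0.888 without the sex term.

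Of the other members, Ibsp, Dmp1 and Phex had the following values on P0. Ibsp was at 393 and 207 CPM in Krt9 null paws against 382 to 689 CPM in WT paws, with 1 Krt9 null paw inside the WT range (log2 fold change -0.93, SE 0.37, edgeR's adjusted p = 0.831). Dmp1 was at 42.5 and 42.1 CPM, below all WT paws (48.7 to 76.7 CPM), with a log2 fold change of -0.68 (SE 0.37). Phex, at 24.7 and 20.8 CPM, also lay below all WT paws (28.7 to 36.0 CPM, log2 fold change -0.52, SE 0.31). Spp1, Dmp1 and Phex were the 3 of 10 members without overlap, all lower, where 4.82% of all genes tested were lower and 6.47% higher without overlap. None of them passed edgeR's test.

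Mepe and Sost had positive values on P0, 0.30 (SE 0.39) and 1.15 (SE 0.47), and both turned negative without Krt9 null replicate 1, to -0.27 and -0.47. That library held 3.33 CPM of Sost, and its partner 0.705 CPM. The same library held 60.9 CPM of Sp7, above the 42.0 to 54.4 CPM of the WT paws, while Krt9 null replicate 2 held 14.6 CPM. Runx2 (36.7 and 16.1 CPM) and Alpl (98.6 and 29.8 CPM) were split between these 2 libraries in the same order. Bglap was at 4.08 and 10.002 CPM, the opposite order. The fitted genotype values of Sp7, Runx2, Alpl, Bglap and Sost had standard errors of 0.47 to 0.70.

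On P3 the Spp1 level averaged 1412 ± 205 CPM (SD, n = 5) for WT and 911 ± 149 CPM (SD, n = 3) for paws labelled Krt9 null, a fitted log2 fold change of -0.74 (SE 0.15), which is the value that led to its choice and was not tested. It was -0.63 within block A and -0.86 within block B, and between -0.65 and -0.81 when each library was left out. All 10 genes had negative values on P3, with a median of -0.72, and the median of all genes was -0.01. Among the 10, Spp1 alone did not overlap between the genotypes, where 1.27% of all genes were lower and 1.3% higher without overlap. Since Spp1 was chosen by these P3 values, its lack of overlap is part of that choice and not a separate result. The gap was between 1070.2 CPM, the highest Krt9 null paw, and 1199.6 CPM, the lowest WT paw.

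The remaining 9 genes overlapped between the genotypes on P3 and differed among the Krt9 null libraries. Krt9 null replicate 2 was above the mean of its group in 10 of 10 genes and replicate 3 was below it in 10 of 10. Ibsp was at 587 CPM in replicate 2 and at 327 and 270 CPM in replicates 1 and 3. Dmp1 was at 115 CPM against 67.2 and 42.2, Phex at 59.5 against 37.8 and 21.3, and Sp7 at 91.1 against 24.8 and 21.5 CPM. For these genes replicate 2 lay inside the WT range and replicates 1 and 3 below the lowest WT paw. The median of the 10 genes was -0.07 in block A, which holds replicate 2, with 3 values positive, and -1.26 in block B with 0 positive. Without Krt9 null replicate 1, 2 or 3 it was -0.40, -1.18 or -0.47.

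**Figure D3:**
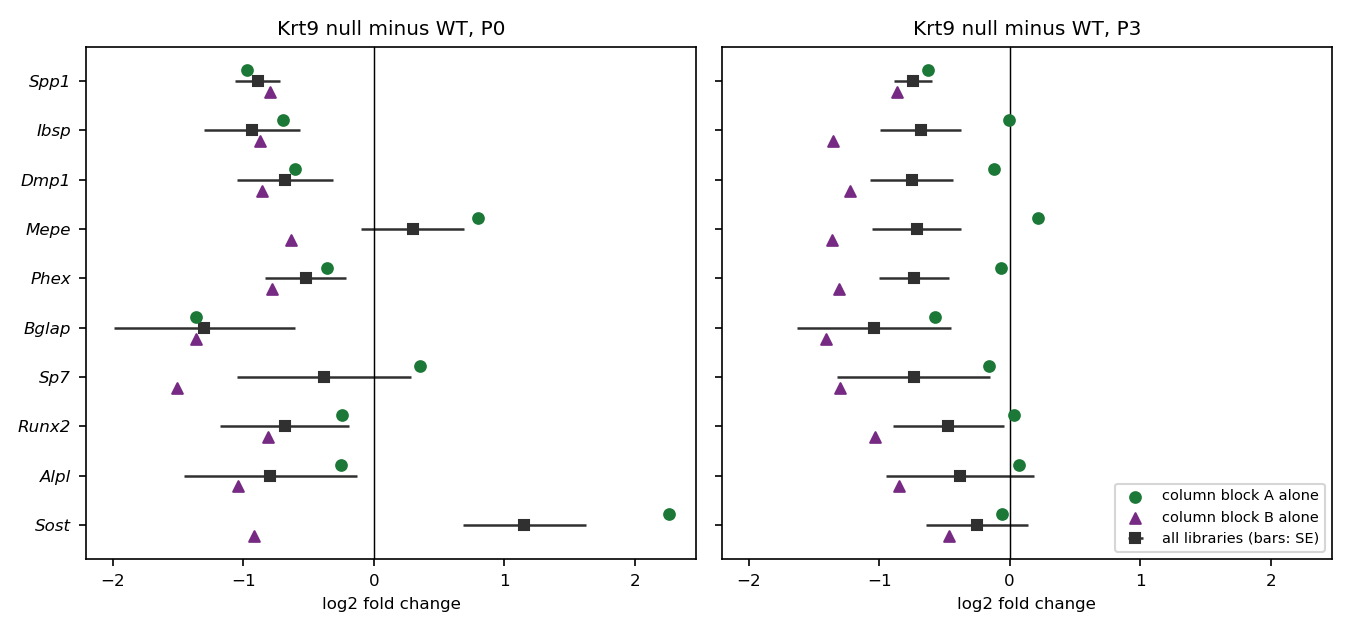
The fitted log2 fold change of Krt9 null minus WT is shown for each gene on P0 and on P3, as squares with standard errors for all libraries, green circles for block A and purple triangles for block B. Spp1 has its 3 marks close together left of 0 on both days (-0.80 to -0.97 on P0 and -0.63 to -0.86 on P3). Spp1 was chosen by a P3 fit with the block as a term, so the closeness of its P3 marks is part of that choice. On P3 the block A circles of the other genes other than Bglap lie near 0. On P3 block A holds 1 Krt9 null library, and on P0 block B holds 1 library of each genotype.

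Markers of some other paw tissues also differed among the Krt9 null libraries of P3. Replicate 2 is the only block A library of that group, so library and block cannot be told apart in it. The 10 osteoclast markers, genes of the cells that resorb bone, summed to 986, 1778 and 686 CPM in Krt9 null replicates 1 to 3 of P3 and to 1371 to 2324 CPM in WT, and all 10 had negative genotype values on P3 and on P0. The bone-resorbing protease Ctsk averaged 735 ± 98.4 CPM over WT and 455 ± 141 CPM over Krt9 null paws of P3 (SD, n = 5 and 3), and Mmp9 at 740 ± 195 and 386 ± 280 CPM. The 5 hypertrophic cartilage markers summed to 315, 498 and 231 CPM against 343 to 908 CPM. The 6 epidermal markers ran the other way, with sums of 38784, 16606 and 36896 CPM in Krt9 null replicates 1 to 3 against 15507 to 22307 CPM in WT, and all 6 had positive genotype values. The 5 endothelial markers summed to 231, 388 and 251 CPM against 338 to 444 CPM, and all 5 had negative values (median -0.50). The 6 skeletal muscle markers summed to 1218, 2680.0 and 2382 CPM against 1673 to 3096 CPM, and all 6 had negative values (median -0.34). Of the 8 cartilage markers 6 had positive values (median 0.14), and of the 8 macrophage markers 3 did (median -0.03). On P0 the epidermal sums were 21177 and 12082 CPM in Krt9 null and 15815 to 34530 CPM in WT paws, and the osteoclast sums 1255 and 806 CPM against 1258 to 2240 CPM. All 6 epidermal markers had negative genotype values on P0 (median -0.49), opposite to P3. All 6 skeletal muscle markers (median -0.72) and 7 of the 8 cartilage markers (median -0.36) were negative on P0 too. Of the 5 endothelial, 5 hypertrophic cartilage and 8 macrophage markers, 3, 3 and 4 were positive. No marker of these lists was at 0 in every library of a group, and their part in the values of the 10 genes was not tested.

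**Figure D4:**
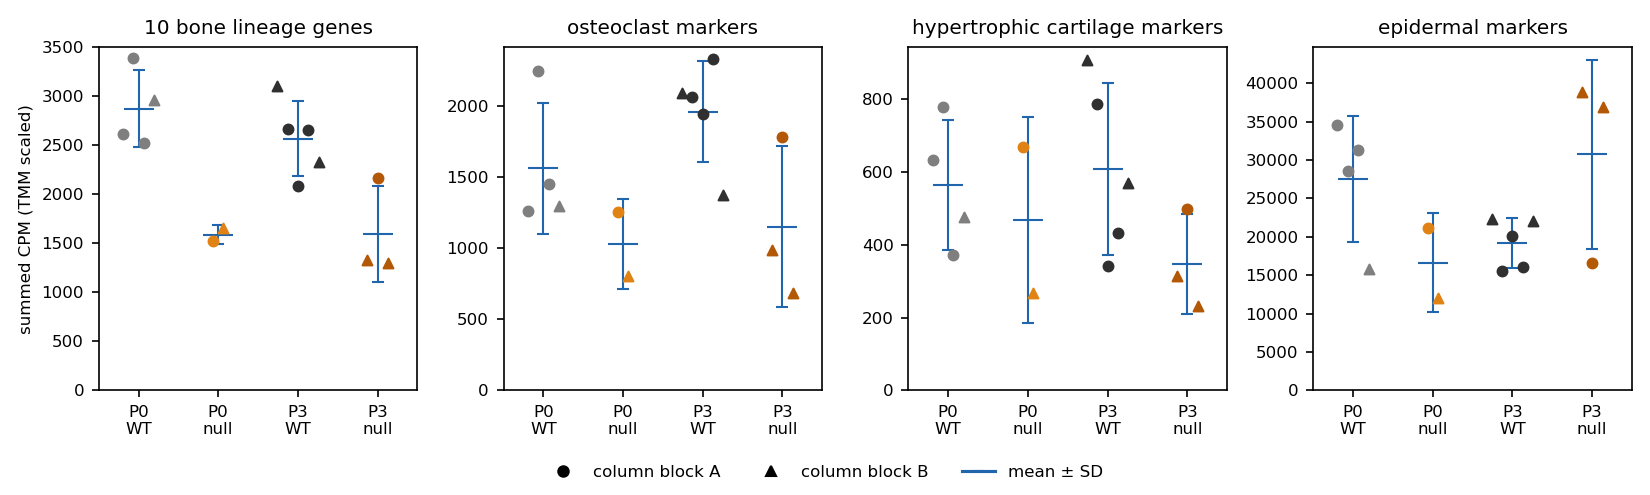
Summed TMM-scaled CPM per library is shown for the 10 bone lineage genes, which Spp1 dominates, and for osteoclast, hypertrophic cartilage and epidermal markers (circles block A, triangles block B, bars mean ± SD, linear axes from 0). On P3 the Krt9 null circle has the highest sum of its group for the first 3 sets and the lowest, 16606 CPM, for the epidermal markers.

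Position in the column order also went with some members. Within the 4 groups, the mean log2(CPM + 1) of block A minus that of block B ran from 0.21 to 1.99 for Sp7. It ran from 0.84 to 1.80 for Alpl, 0.34 to 1.48 for Runx2, -0.33 to 0.98 for Ibsp and -0.62 to 0.37 for Spp1. A block held 1 to 3 libraries of a group, and both blocks held only 1 in Krt9 null paws of P0. Such differences were not computed over all genes. Transcripts that share bases with a member could add reads where strand was not used, which the sources used here do not state. The predicted gene Gm42793 overlaps Spp1 on the same strand and held 1454 counts over all 14 libraries, and Supt3 overlaps Runx2 on the opposite strand with 3090 counts.

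**Figure D5:**
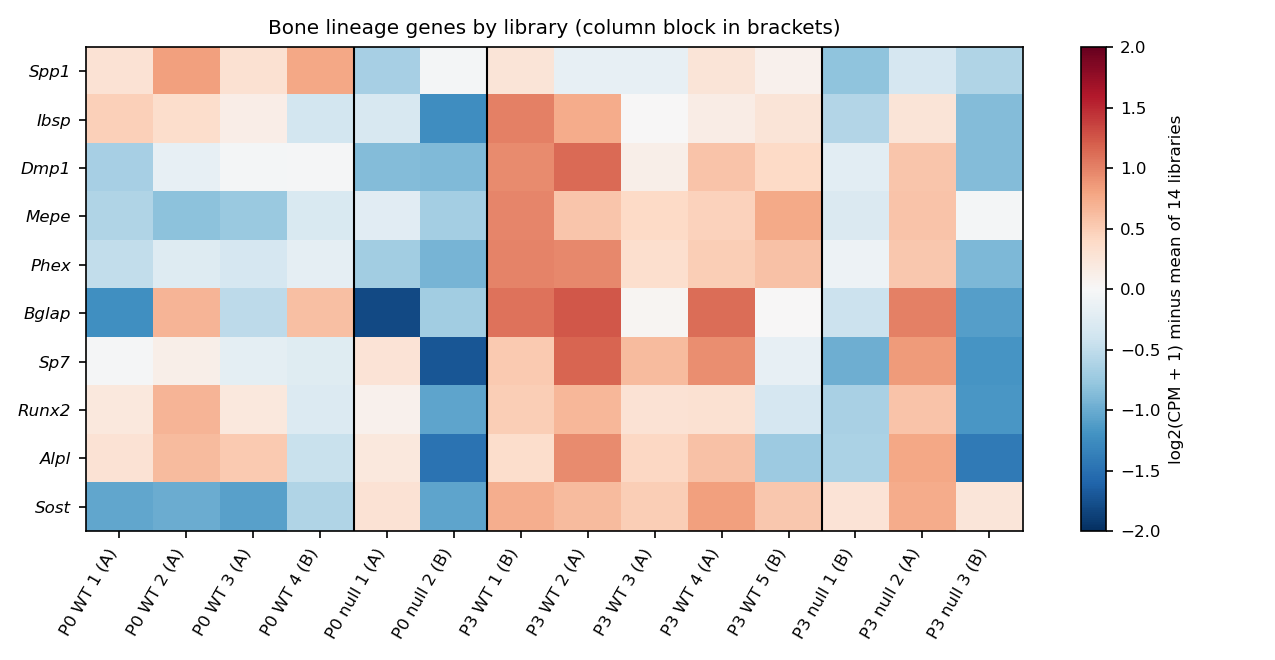
Each cell is the log2(CPM + 1) of a gene in a library minus the mean of that gene over the 14 libraries, with red higher and blue lower and the block in brackets. The 5 WT libraries of P3 are red or pale for most genes, Krt9 null replicates 1 and 3 of P3 are mostly blue, and Krt9 null replicate 2 of P3 is red in every gene but Spp1.

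The bone pathway around the 10 genes was read from lists of further genes, whose members that passed were named after their values were seen, beside the 2 of each list with the highest mean CPM. Among all genes tested 8.49% rose and 8.07% fell between these days, and a count of 1 gene in a list of 10 or 11 is near those shares. Of 8 osteoblast transcription factors, 2 rose and 1 fell from P0 to P3 in WT paws. The homeobox genes Dlx3 and Msx2 rose by log2 fold changes of 1.28 (SE 0.33, edgeR's adjusted p = 0.0229) and 1.58 (SE 0.36, edgeR's adjusted p = 0.0126). Both are also active in skin and its appendages. The stress-response factor Atf4 fell, at -0.33 (SE 0.10, edgeR's adjusted p = 0.0392), and Mef2c was at 174 ± 35.8 and 142 ± 17.2 CPM (SD, n = 4 and 5). Of 11 bone matrix genes 1 rose, Bglap3, whose counts were low. The type I collagen genes Col1a1 (24864 ± 7966 and 25466 ± 10868 CPM) and Col1a2 (19948 ± 4598 and 20356 ± 6465 CPM) had log2 fold changes of 0.00 with standard errors of 0.48 and 0.32. The list medians were 0.38 and 0.23, beside -0.01 for all genes.

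Of 12 genes of phosphate and mineral handling, 3 fell in WT paws and 0 rose, with a list median of 0.03. Mgp, an inhibitor of calcification, went from 208 ± 21.0 to 104 ± 20.7 CPM (log2 fold change -0.99, SE 0.14, edgeR's adjusted p = 0.000978). The phosphate transporters Slc20a1 and Slc20a2 fell by 0.46 and 0.44 on the log2 scale, and the sphingomyelinase Smpd3, needed for normal mineralisation, was at 144 ± 55.1 and 161 ± 35.0 CPM. Of 7 further osteocyte genes 1 rose and 2 fell, with a median of -0.40. The Wnt inhibitor Dkk1 rose (log2 fold change 0.92, edgeR's adjusted p = 0.00714), whereas Cd44 and Pdpn fell by 0.50 and 0.40. Pdpn and Cd44 are also made by many cells outside bone.

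Among 11 Wnt receptors and secreted inhibitors, 2 rose and 1 fell, with a median of -0.07. Dkk1 and Sostdc1 (0.61, edgeR's adjusted p = 0.0172) rose and Dkk3 fell by 0.46, while the Wnt co-receptor Lrp6 was at 129 ± 10.04 and 130 ± 17.9 CPM. Of 9 osteopontin receptors 3 fell and 0 rose, with a median of -0.25. The integrin chain Itga5 fell by 0.98 (SE 0.29), Itga8 by 0.41 and the hyaluronan receptor Cd44 by 0.50, and Itgb1 went from 816 ± 53.9 to 680 ± 46.4 CPM without passing (edgeR's adjusted p = 0.0928). Of the 10 osteoclast markers 1 fell, the calcitonin receptor Calcr, and 0 rose. Macrophages can make Spp1 too, and of their 8 markers 4 rose and 0 fell, with Mrc1 at 104 ± 21.4 and 157 ± 9.52 CPM and Csf1r at 95.5 ± 20.8 and 156 ± 21.4 CPM. Of the 102 genes on these and the marker lists below, 0 passed edgeR's test between the genotypes on P0, and 12 had an unadjusted p under 0.05, where 5.96% of all genes did.

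The remaining marker lists had these WT day counts. Of 8 cartilage markers 0 passed edgeR's test and 0 had an unadjusted p under 0.05 (median 0.23), with Col2a1 at 723 ± 699 and 886 ± 863 CPM and Col11a2 at 452 ± 155 and 480 ± 200 CPM. Of 5 hypertrophic markers 0 passed edgeR's test and 1 had an unadjusted p under 0.05 (median 0.51), with Mmp13 at 397 ± 169 and 320 ± 113 CPM and Col10a1 at 60.6 ± 73.1 and 140 ± 118 CPM. Of 6 epidermal markers 1 fell (Cdh1), with Krt1 at 11894 ± 3612 and 7836 ± 1742 CPM and Krt10 at 8947 ± 2860 and 6616 ± 1746 CPM. Of 6 skeletal muscle markers 4 fell, with Acta1 at 2027 ± 1334 and 774 ± 261 CPM and Myh8 at 1581 ± 1208 and 623 ± 219 CPM, both short of the threshold. Of 5 endothelial markers 1 fell (Pecam1, from 189 ± 17.1 to 137 ± 14.7 CPM), and Cdh5 was at 155 ± 25.8 and 114 ± 23.3 CPM.

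The genes whose profiles over the 14 libraries were nearest to that of Spp1 did not include its neighbours in the gene cluster. Likeness was measured as the root mean square difference between log2(CPM + 1) profiles, each centred on its own mean, among 13299 genes with a mean of at least 2 CPM. The nearest genes to Spp1 were Col25a1 (0.22), Enho (0.28), Plscr1 (0.28), Tpm1 (0.28) and Eya4 (0.28), and Ibsp was at rank 9338 (0.60). This measure depends on how much each gene varies as well as on shape: a gene with no variation would lie at 0.48 from Spp1 and at 0.60 from Ibsp. Col25a1, which encodes a transmembrane collagen, was at 13.9, 9.28, 10.2 and 7.67 CPM in WT and Krt9 null paws of P0 and then of P3. The nearest to Ibsp were Mamdc2 (0.25), Enpp6 (0.28), Col11a1 (0.28), Rab11fip4 (0.28) and Pdzrn4 (0.28). Runx2 followed at rank 7 (0.31), Phex at 83, Dmp1 at 144, Alpl at 191 and Sp7 at 294, whereas Spp1 was at rank 3908. The points of these profiles share libraries, block and tissue mixture, and the ranks describe these 14 libraries only.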

How the data were processed

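Raw read counts per gene of 14 whole-paw libraries were used as the authors deposited them, without normalization (the values were tested to be whole numbers). Per the submitters' processing notes, STAR 2.7.10a, featureCounts, edgeR, limma and the build GRCm39 were involved, while filters and the use of strand are not given in the sources named here. Of 56691 gene IDs, 52073 matched a symbol in the reference annotation, and the other 4618 held 0.623% of the counts and were kept under their IDs. Every table column had a sample.

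TMM scaling and the robust quasi-likelihood fit of edgeR 4.0.16 (R 4.3.3) were applied to the 21619 genes kept by filterByExpr. A single fit held the 14 libraries in 4 day and genotype groups, with labelled sex as covariate, leaving 9 residual degrees of freedom. Benjamini-Hochberg adjustment ran over all genes tested, and calls were made below an adjusted p of 0.05. The contrasts tested were day in WT, day in Krt9 null and genotype on P0. SE is the standard error of the fitted log2 fold change, and CPM values are TMM-scaled. Nothing states how many animals a library holds, so p-values measure the spread between these libraries. The members and lists were chosen with earlier results of these data known.

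Named genes were the 10 members, Bglap2 and Bglap3, the 2 genes of each further list with the highest mean CPM, and the 5 genes most like Spp1 and Ibsp (mean of at least 2 CPM, pseudocount 1, no predicted genes). Alternatives were DESeq2 size factors, library size only, no filter, at least 1 CPM in 4 libraries, DESeq2 1.42.0, limma 3.58.1 voom, no sex term, the column block as a term, litter within a day as a block, only the groups compared, each library left out, and, chosen after seeing the data, each column block alone. Promoter windows came from RefSeq (GRCm38.p6), a build other than that of the alignment, so they serve for sequence only, and Sp7 had no entry. The fit was tested on simulated data. Python 3.11.15, NumPy 2.4.6, pandas 2.3.3 and matplotlib 3.10.9 were used for the rest.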

Additional observations from a re-analysis of the deposited data

Results flagged for a closer look

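Sost in WT paws of P0 had 1 library, replicate 4, at 1.35 CPM, while the other 3 held 0.679 to 0.790 CPM, a gap above the 95% limit of Dixon's test for 4 values. It is also the library of that group in block B and the one whose sex markers did not match its label. The 10 genes were looked at in both WT groups (20 sets of values), and chance flags about 1 in 20. Without this library the WT day change of Sost was 2.64 (edgeR's adjusted p = 0.00145).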

How the results depend on the processing

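Direction and call of Mepe and Sost in the WT day comparison were the same under every refit with a test. Of all genes, 3581 were called there (1836 higher, 1745 lower), 5570 with the column block as a term and 1629 to 4332 when a library was left out, and of the 10 genes 5 were called, 7 without a filter, 6 with only the groups compared and 2 to 5 when a library was left out. Scaling by library size gave 2376 higher and 1062 lower, with medians of all genes at 0.10 for this comparison and 0.11 for genotype on P0. In Krt9 null paws 166 genes changed with day, 1692 without a filter, 1090 by DESeq2, 41 without the sex term, 1070 with the column block, 1 with only the groups compared and 0 to 645 when a library was left out. Of the 10 genes 0 passed there, 3 without a filter (Dmp1, Phex and Bglap) and 0 to 1 when a library was left out. For genotype on P0, 1 gene was called, 182 without a filter, 9 by DESeq2 and 1 to 3 when a library was left out, and of the 10 genes 0, 4 without a filter (Spp1, Ibsp, Bglap and Alpl) and 1 by DESeq2 (Spp1). Without a filter, standard errors of the WT day changes fell for some members, as from 0.49 to 0.14 for Alpl and 0.27 to 0.14 for Ibsp. Those of Spp1 (0.13 and 0.14) and Mepe (0.32 and 0.33) did not fall. The counts without a filter are thus not on the same footing as the main counts. The causes were not tested.

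The P3 genotype median was -0.72, -0.065 in block A, -1.26 in block B and -0.40 to -1.18 when a library was left out. Signs turned in block B alone for the day change of Bglap (-0.53 in WT and -0.57 in Krt9 null), Alpl (-0.20 and -0.0073) and Runx2 (-0.19 in Krt9 null), and for genotype on P0 of Mepe (-0.63) and Sost (-0.92). In block A alone they turned for Sp7 on P0 (0.36) and for Mepe (0.22), Runx2 (0.031) and Alpl (0.071) on P3. When a library was left out, the WT day change ran from -0.071 to 0.31 for Runx2 and from -0.15 to 0.32 for Alpl. In Krt9 null paws it ran from -0.59 to 1.68 for Sp7, -0.49 to 0.87 for Runx2, -0.49 to 1.34 for Alpl and -0.019 to 2.52 for Sost. Genotype on P0 ran from -0.27 to 0.75 for Mepe, -1.76 to 0.44 for Sp7 and -0.47 to 2.07 for Sost, and Alpl on P3 from -1.36 to 0.042.

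With litter within a day as a block, 3008 genes and 4 of the 10 were called for day in WT, 129 and 0 for day in Krt9 null and 1 and 0 for genotype on P0, with a consensus correlation of 0.555 between libraries of a litter. That correlation rests on WT and Krt9 null replicates 1 of P0 and WT replicates 2 and 3 of P3. No other libraries shared a litter within a day. These were all male and in block A, so litter and block cannot be told apart in it. The P3 genotype median was -0.79. Within a day, WT and Krt9 null replicates 1 of P0 are the only pair of litter mates across genotypes, and whether equal litter numbers on different days mean 1 litter is not stated. The 2 and 3 Krt9 null libraries, of different blocks, limit what these comparisons can show.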

Other observations

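The CPM ratio of Spp1 to Dmp1, genes of 1 cluster, was 21.9 to 34.3 in WT paws of P0 and 6.95 to 14.2 in those of P3. That these ranges do not overlap follows from the fall of Spp1 and the rise of Dmp1, each without overlap. It is not a separate result. In Krt9 null paws it was 20.1 and 31.2 on P0 and 9.27 to 21.0 on P3. The ratio of Spp1 to Ibsp was 2.39 to 6.03 and 1.46 to 2.95 in WT paws, with overlapping days. The ratio of Runx2 to Ibsp ran from 0.0467 to 0.0934 over the 14 libraries. That of Alpl to Ibsp ran from 0.0864 to 0.251, and that of Phex to Ibsp from 0.0417 to 0.116. Dspp, the dentin gene at the end of the cluster, did not pass the filter on low counts.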
